A study of Homo sapiens with 6 samples.

Results

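To describe how the genes that start blood clotting and activate plasminogen were expressed in gastric cancer cells exposed to the peptide GLUP, 9 genes were followed through RNA-sequencing data of HGC-27, a line of human gastric cancer cells. The 9 genes were F3 (tissue factor), TFPI, TFPI2, SERPINE2, PLAU, PLAUR, PLAT, F2R and F2RL1. They were taken by symbol from a table of 62443 genes, and all 9 were found. They were selected on their FPKM values in the Con and GLUP libraries, so the difference between the groups is given for them as a description, without a test. The samples were 3 Con libraries, whose labels give no treatment and for which the methods name the buffer of the peptide, and 3 libraries of cells treated with GLUP at 10 μg/ml. GLUP is a disulfide-cyclized peptide with tandem copies of a TEAD4-binding element, made to link molecules of TEAD4, the DNA-binding factor at the end of the Hippo pathway. All libraries came from 1 cell line grown in the same medium, and the length of treatment was given as 12 h in one place and as 48 h in another. The labels do not say whether replicates were separate cultures. The methods speak of biological replicates, without tying them to single libraries.

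Tissue factor is the membrane protein that starts coagulation: it binds factor VII, and the complex activates factor X and so leads to thrombin. TFPI is the Kunitz-type inhibitor of that complex, while TFPI2 inhibits plasmin and related proteases of the matrix, and SERPINE2 (protease nexin) inhibits thrombin and the plasminogen activators. PLAU (urokinase) and PLAT (tissue-type activator) convert plasminogen to plasmin, PLAUR holds urokinase at the cell surface, and F2R (PAR1) and F2RL1 (PAR2) are receptors that are switched on when proteases such as thrombin, or the complex of tissue factor and factor VII in the case of F2RL1, cut them. Tumour cells often carry tissue factor and the urokinase receptor on their surface.

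Values were FPKM (fragments divided by gene length and by the mapped fragments of the library), a level per length that allows genes to be compared with each other. Of the 9 genes, 4 reached the minimum of 1 FPKM on average over the 6 libraries (F3, TFPI, PLAUR and F2R) and 5 were below it. Of these 5, F2RL1 was listed at 0 throughout. A lower value in a bulk library can stand for fewer expressing cells or for less RNA per cell, which cannot be told apart here. The libraries were not alike within the Con group. Con replicate 2 had the lowest mean Pearson correlation with the others (0.898, compared with 0.954 to 0.964). The deviations of a library from the gene means followed the GC content of the transcripts, with Spearman correlations across genes of -0.34 and -0.60 in Con replicates 1 and 2, 0.45 in Con replicate 3 and 0.34 to 0.54 in the GLUP libraries. Across genes, the difference between GLUP and Con followed GC content as well (Spearman 0.549, with genes not independent). The GC content of F3, TFPI, PLAU, PLAUR, F2R, F12, ENO1 and P4HB is given beside them below. For TFPI2, SERPINE2, PLAT and F2RL1 it is 37.1%, 45.7%, 52.3% and 44.1%. Depth was not recorded as reads. From the steps between low values, relative depth ran from 0.83 in Con replicate 2 to 1 in GLUP replicate 2, and the approximate read numbers below rest on this step.

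The region before the start of each gene was searched for 4 motifs, because GLUP is aimed at a DNA-binding protein. Both strands were read in windows from 250 bases before to 50 after the start (RefSeq, GRCh38.p14), of which 9 were used for 7 of the genes and none for PLAT and F2R. The motifs were the TEAD core GGAATG (in 14% of all 35116 windows), the AP-1 site TGANTCA (7.71%), the GC box GGGCGG (45.0%) and the E-box CACGTG (7.26%), and no matches overlapped. The 250 bases before the start are shown for F3 and SERPINE2, which were lower in GLUP, for PLAU, which was higher, for PLAUR, its receptor, and for F2RL1, which held the single TEAD core. They are written 5′ to 3′ on the strand of the gene, with motif matches in capitals.
F3, chr1:94541760-94542009, minus strand: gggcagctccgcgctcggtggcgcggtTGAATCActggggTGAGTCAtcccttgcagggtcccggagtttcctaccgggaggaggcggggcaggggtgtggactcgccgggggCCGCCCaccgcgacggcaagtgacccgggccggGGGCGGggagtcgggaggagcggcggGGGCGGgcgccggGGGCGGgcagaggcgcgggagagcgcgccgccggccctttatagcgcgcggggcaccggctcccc
SERPINE2, chr2:224031479-224031728, minus strand: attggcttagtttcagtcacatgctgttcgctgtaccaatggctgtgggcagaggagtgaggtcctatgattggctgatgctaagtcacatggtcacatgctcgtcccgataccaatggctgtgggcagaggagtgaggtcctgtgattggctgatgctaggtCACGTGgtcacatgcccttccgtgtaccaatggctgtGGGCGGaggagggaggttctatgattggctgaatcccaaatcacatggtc
PLAU, chr10:73910882-73911131, plus strand: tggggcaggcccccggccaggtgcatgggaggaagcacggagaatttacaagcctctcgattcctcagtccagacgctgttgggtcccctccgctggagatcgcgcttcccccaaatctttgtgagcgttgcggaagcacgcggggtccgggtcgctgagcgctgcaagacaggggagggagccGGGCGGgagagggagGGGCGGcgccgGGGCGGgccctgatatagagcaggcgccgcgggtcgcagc
PLAUR, chr19:43670170-43670419, minus strand: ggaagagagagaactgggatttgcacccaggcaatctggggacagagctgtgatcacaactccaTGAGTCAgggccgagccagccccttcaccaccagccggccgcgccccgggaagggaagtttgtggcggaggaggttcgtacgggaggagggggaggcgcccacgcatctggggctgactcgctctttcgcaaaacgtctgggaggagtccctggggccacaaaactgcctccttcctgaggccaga
F2RL1, chr5:76818780-76819029, plus strand: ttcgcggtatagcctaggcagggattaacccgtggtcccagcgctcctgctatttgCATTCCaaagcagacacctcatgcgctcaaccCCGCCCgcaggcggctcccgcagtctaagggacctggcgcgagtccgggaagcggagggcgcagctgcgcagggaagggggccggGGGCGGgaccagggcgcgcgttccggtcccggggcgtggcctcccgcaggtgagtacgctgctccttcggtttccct
The F3 window held 2 AP-1 matches, at -223 and -210, and 4 GC boxes. That of PLAUR held an AP-1 match at -186, and that of TFPI2 held 1 at -87 with 2 GC boxes. The SERPINE2 window shown had an E-box at -87 and 1 GC box, while its other window had 2 GC boxes only. Of the windows of PLAU, the one shown had 3 GC boxes and the other had no match. F2RL1 had the TEAD core at -194 and 3 GC boxes, of which 1 lies past the start and is not shown. The TFPI window, at 39.3% GC the poorest in G and C, had none of the motifs. These matches describe letters only. They were not tested for binding.

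F3 had the lowest GLUP values relative to Con among the 4 genes above the minimum. F3 (ENSG00000117525, protein-coding, GRCh37 chromosome 1, 94994729 to 95007315, minus strand) was at 2.34, 4.27 and 1.45 FPKM in Con replicates 1, 2 and 3 and at 0.431, 0.472 and 0.239 FPKM in GLUP replicates 1, 2 and 3. Every GLUP library was below every Con library, and the Con libraries were spread more widely than the GLUP libraries. The means were 2.68 ± 1.44 FPKM for Con and 0.381 ± 0.124 FPKM for GLUP (SD, n = 3 each), a ratio of 7.05. On the log2(FPKM + 1) scale, which understates differences at such levels, GLUP minus Con was -1.35 (SE 0.29). The median of the tested genes was itself -0.23, from which F3 lay at -1.12. Among the 7406 genes tested, 118 (1.59%) had a difference as low as that of F3 or lower. The approximate read numbers were 161, 249 and 92 in Con and 29, 33 and 15 in GLUP. The highest and the lowest Con value belonged to replicates 2 and 3. Without Con replicate 2 the log2 difference was -1.05, and without Con replicate 3 it was -1.61. The F3 transcript has 42.8% GC, and with the trend in GC content and length removed from each library the difference was -0.89 (SE 0.22), with the groups still apart, as were 13.8% of genes in the lower direction after this step.

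TFPI, the inhibitor of the complex that tissue factor forms, had the highest level of the 9 genes in Con. TFPI (ENSG00000003436, protein-coding, chromosome 2, 188328957 to 188430487, minus strand) was at 8.70, 10.3 and 3.21 FPKM in Con and at 1.91, 4.05 and 3.14 FPKM in GLUP. Con replicates 1 and 2 were above all GLUP libraries, and Con replicate 3 lay within the GLUP range, so that the groups overlapped. Its means were 7.40 ± 3.72 FPKM (Con) and 3.03 ± 1.07 FPKM (GLUP; SD, n = 3 each). The log2 difference was -0.98 (SE 0.40), which is -0.75 counted from the median of tested genes, and -1.41 without Con replicate 3. TFPI has the lowest GC content of the 9 genes, 34.7%, and with the trend in GC content and length removed its difference was -0.32 (SE 0.27). The part of GC content in the lower TFPI values was not tested beyond this. CALCRL-AS1 shares 118 exon bases with TFPI on the opposite strand, at a mean of 0.0635 FPKM.

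TFPI2 and SERPINE2 encode inhibitors of plasmin, thrombin or the plasminogen activators, and both were below the minimum. TFPI2 (ENSG00000105825, protein-coding, chromosome 7, 93514708 to 93520065, minus strand) was at 0.486, 0.461 and 0.0302 FPKM in Con and at 0.239, 0.221 and 0.324 FPKM in GLUP. The GLUP values fell between the high Con replicates 1 and 2 and the low Con replicate 3, for which about 2 reads stood behind the value. Its log2 difference of -0.05 (SE 0.17) took the other sign in 6 of 13 other settings, and TFPI2 is uncertain because its exons share 44 bases with GNGT1, which is on the other strand at 7.32 FPKM. SERPINE2 (ENSG00000135919, protein-coding, chromosome 2, 224839762 to 224904035, minus strand) was at 0.416, 0.385 and 0.339 FPKM in Con and at 0.0162, 0.107 and 0.0653 FPKM in GLUP. Its Con libraries were close to each other, and all lay above the GLUP libraries. The means were 0.380 ± 0.0390 FPKM (Con) and 0.0627 ± 0.0452 FPKM (GLUP; SD, n = 3 each), a ratio of 6.06. About 28, 22 and 21 reads stood behind the Con values and about 1, 7 and 4 behind the GLUP values, so the ratio carries a large counting error. The log2 difference was -0.38 (SE 0.09) with a pseudocount of 1 and -1.60 with a pseudocount of 0.1.

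**Figure D1:**
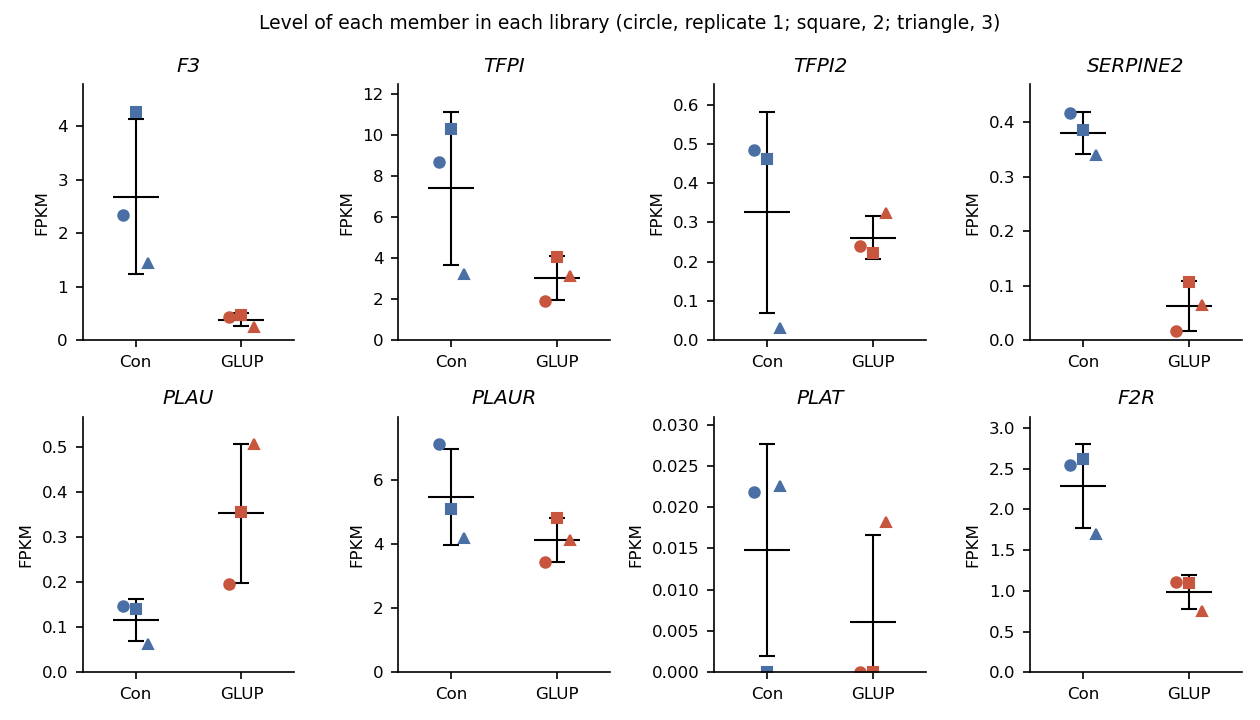
FPKM of the 8 genes above 0, one panel each with its own axis from 0, in 3 Con libraries (blue) and 3 GLUP libraries (red). Long lines are means and bars are SD (n = 3), cut at 0 for PLAT in GLUP. The GLUP points lie below all Con points for F3, SERPINE2 and F2R and above them for PLAU, and the groups overlap for TFPI, TFPI2, PLAUR and PLAT.

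PLAU, which encodes urokinase, was the only one of the 8 genes above 0 with a higher mean in GLUP. PLAU (ENSG00000122861, protein-coding, chromosome 10, 75668935 to 75677254, plus strand) was at 0.147, 0.141 and 0.0624 FPKM in Con and at 0.197, 0.356 and 0.507 FPKM in GLUP. All GLUP libraries lay above all Con libraries, with a small gap between Con replicate 1 and GLUP replicate 1. The means were 0.117 ± 0.0474 FPKM (Con) and 0.354 ± 0.155 FPKM (GLUP; SD, n = 3 each), with GLUP 3.02 times Con, and the log2 difference was 0.27 (SE 0.12). Behind these values stood about 10, 8 and 4 reads in Con and 13, 25 and 33 in GLUP. PLAU is richer in GC (52.8%) than F3, TFPI and F2R. Its value with the GC trend removed was not computed at this level. C10orf55 shares 915 exon bases with PLAU on the opposite strand and had a mean of 0.0105 FPKM. The other activator, PLAT (ENSG00000104368, protein-coding, chromosome 8, 42032236 to 42065227, minus strand), was at 0.0218, 0 and 0.0226 FPKM in Con and at 0, 0 and 0.0182 FPKM in GLUP. No value of PLAT rests on more than about 2 reads, so no difference was detectable at this depth.

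PLAUR, the urokinase receptor, differed little between the groups. PLAUR (ENSG00000011422, protein-coding, chromosome 19, 44150247 to 44174699, minus strand) was at 7.13, 5.10 and 4.21 FPKM in Con and at 3.45, 4.82 and 4.15 FPKM in GLUP. Con replicate 1 was the highest library, and the ranges of the groups overlapped. The means were 5.48 ± 1.5 FPKM (Con) and 4.14 ± 0.687 FPKM (GLUP; SD, n = 3 each). GLUP minus Con was -0.32 (SE 0.28) on the log2 scale, which is -0.09 counted from the median of tested genes. PLAUR is the richest in GC of the 9 genes, at 55.9%, and removing the trend in GC content and length gave -0.50 (SE 0.26), with the groups still overlapping. Thus PLAU and its receptor were at levels far apart, with PLAUR above PLAU in every library.

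Of the protease-activated receptors, F2R was measured and F2RL1 was listed at 0 in all 6 libraries. F2R (ENSG00000181104, protein-coding, chromosome 5, 76011951 to 76031595, plus strand) was at 2.55, 2.62 and 1.70 FPKM in Con and at 1.11, 1.10 and 0.748 FPKM in GLUP. Each GLUP library was below the lowest Con library, replicate 3. Its means were 2.29 ± 0.512 FPKM (Con) and 0.988 ± 0.207 FPKM (GLUP; SD, n = 3 each), a ratio of 2.32, with a log2 difference of -0.72 (SE 0.23), which is -0.49 counted from the median of tested genes. About 286, 248 and 175 reads stood behind F2R in Con and 119, 125 and 78 in GLUP. Its transcript has 43.7% GC, and removing the trend in GC content and length moved the difference to -0.31 (SE 0.17) without bringing the groups together. F2RL1 (ENSG00000164251, protein-coding, chromosome 5, 76114758 to 76131140, plus strand) lies close to F2R. An exact 0 in such a table can be a failed estimate, so no limit is given for it. The remaining receptors of the family were also near 0, with F2RL2 at 0.0758 FPKM or below and F2RL3 listed at 0.

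**Figure D2:**
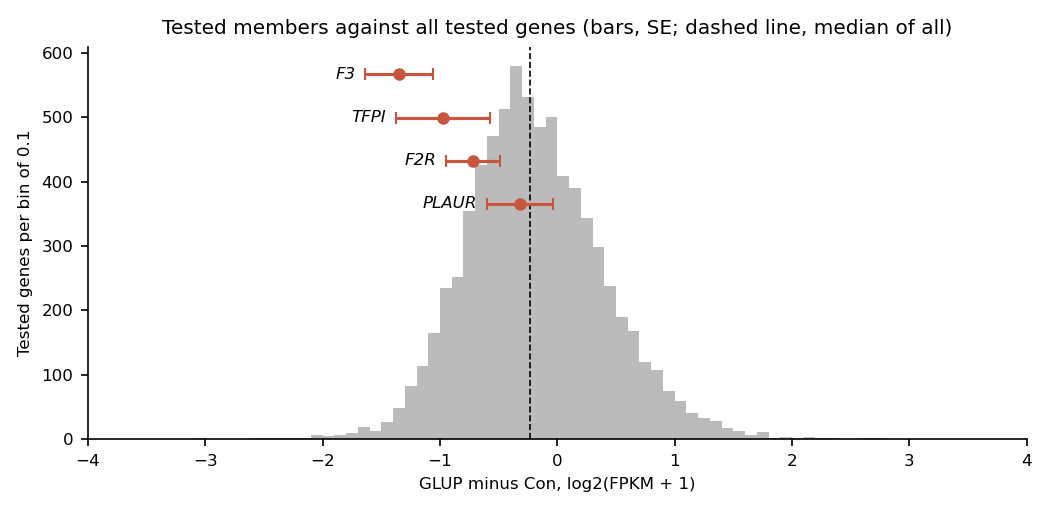
Difference between GLUP and Con on the log2(FPKM + 1) scale for the 4 genes above the minimum (red points with SE bars, placed at arbitrary heights) over the histogram of all 7406 tested genes in bins of 0.1. The dashed line is the median of all tested genes, -0.23. F3 lies in the lower tail at -1.35, TFPI at -0.98 and F2R at -0.72 lie left of the median, and PLAUR at -0.32 lies near it.

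Set beside the whole table, 4 of the 9 genes had groups that did not overlap, 3 lower in GLUP (F3, SERPINE2, F2R) and 1 higher (PLAU). Among all 7406 tested genes the groups did not overlap in 30.3%, with 22.7% lower and 7.55% higher in GLUP. In the 8396 genes between 0.1 and 1 FPKM, where SERPINE2 and PLAU lie, these shares were 12.7% lower and 5.79% higher. All 4 genes above the minimum had a lower mean in GLUP, as did 65.5% of the tested genes, and they were lower as well after scaling by the trimmed mean of log ratios, where that share was 50.6%. On the log2(FPKM + 1) scale, F3 alone of the 4 was more than 2-fold lower, as were 6.81% of the tested genes. The plain ratios of the means of TFPI (2.44) and F2R (2.32) were also above 2, and with a pseudocount of 0.1 their log2 differences were -1.16 and -1.13. The rule chose these genes on the same values, so nothing is read from these counts. No gene of the table had an adjusted p under 0.05 in limma: the smallest was 0.0806, and 1606 genes (21.7%) had an unadjusted p under 0.05. This count of 0 depended on a single library. Without Con replicate 3 the number was 1367 (18.5%), of which 1204 (16.3%) were lower and 163 (2.2%) higher in GLUP. Con replicates 1 and 2, which remain in this setting, had GC correlations of -0.34 and -0.60, while those of the GLUP libraries were 0.34 to 0.54. The part of GC content in these calls was not tested.

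**Figure D3:**
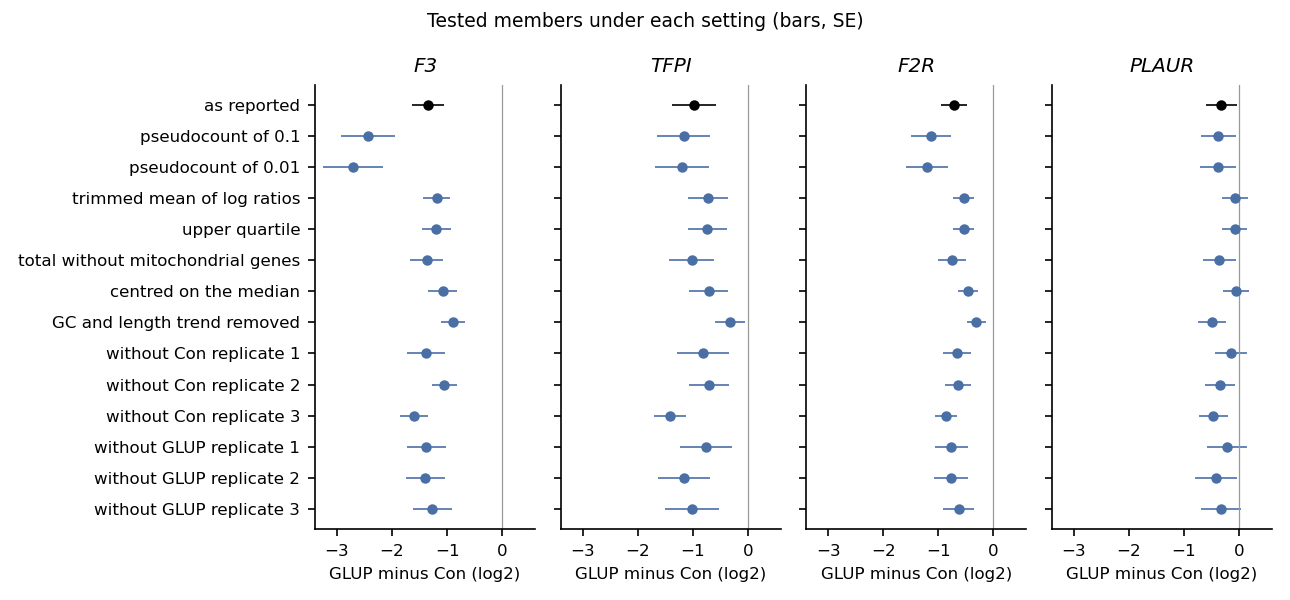
Difference between GLUP and Con on the log2 scale for F3, TFPI, F2R and PLAUR as reported (black) and under 13 other settings (blue), with SE bars. Values left of the grey line at 0 are lower in GLUP. All points of the 4 genes lie left of it, F3 reaches -2.70 with a pseudocount of 0.01, and TFPI ranges from -1.41 without Con replicate 3 to -0.32 with the GC and length trend removed.

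The order of the levels differed between the groups. In Con, TFPI (mean 7.40 FPKM) was followed by PLAUR (5.48), F3 (2.68) and F2R (2.29), and each of these overlapped with its neighbour. SERPINE2 (0.380 FPKM), TFPI2 (0.325) and PLAU (0.117) came next, set apart from F2R but overlapping in turn, and PLAT stood apart below them. In GLUP, PLAUR (4.14 FPKM) and TFPI (3.03) overlapped at the top, and F2R (0.988) and then F3 (0.381) each stood apart from the gene above. F3, PLAU (0.354 FPKM) and TFPI2 (0.261) overlapped in GLUP, and SERPINE2 (0.0627) stood apart below TFPI2. PLAU was thus below SERPINE2, an inhibitor of its product, in every Con library and above it in every GLUP library. This order rests on few reads, about 4 to 10 for PLAU and 21 to 28 for SERPINE2 in Con. In GLUP they were about 13 to 33 and 1 to 7. The GC contents differ as well (52.8% and 45.7%), and for neither gene was a value with the GC trend removed computed.

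Ratios between genes of the same library do not depend on the scaling of that library, and they were computed without a pseudocount, a choice made after seeing the data that gives larger differences than the planned pseudocount of 1. The ratio of F3 to TFPI was 0.269, 0.414 and 0.450 in the Con replicates and 0.226, 0.117 and 0.0763 in the GLUP replicates. Tissue factor was thus lower relative to its inhibitor in each GLUP library than in any Con library, although the gap between Con replicate 1 and GLUP replicate 1 was narrow, and the mean log2 ratios differed by -1.55, or by -0.37 with a pseudocount of 1 and -0.57 with the trend in GC content and length removed as well. The ratio of F3 to F2R was 0.916, 1.63 and 0.850 in Con and 0.388, 0.428 and 0.320 in GLUP, a difference of -1.53, or -0.63 with a pseudocount of 1. These genes have similar GC contents (42.8% and 43.7%), and with the trend in GC content and length removed as well the latter was -0.58. F3 to PLAUR went from 0.328, 0.837 and 0.344 to 0.125, 0.0979 and 0.0576, a difference of -2.35 on the log2 scale. F3 and PLAUR differ more in GC content (42.8% and 55.9%). Their difference was -1.03 with a pseudocount of 1, and -0.39 with the trend removed as well. Urokinase relative to its receptor showed the opposite direction. PLAU to PLAUR was 0.0207, 0.0277 and 0.0148 in Con and 0.0573, 0.0740 and 0.122 in GLUP, a difference of 1.98 on the log2 scale, or 0.59 with a pseudocount of 1, resting on the few reads of PLAU. The groups of the TFPI to PLAUR ratio overlapped (0.764 to 2.02 in Con and 0.554 to 0.840 in GLUP). Those of the F2R to PLAUR ratio did not, at 0.358, 0.513 and 0.404 in Con and 0.323, 0.229 and 0.180 in GLUP. With a pseudocount of 1 the log2 differences of these last ratios were -0.66 and -0.40, and removing the trend as well turned their direction, to 0.18 and 0.19.

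**Figure D4:**
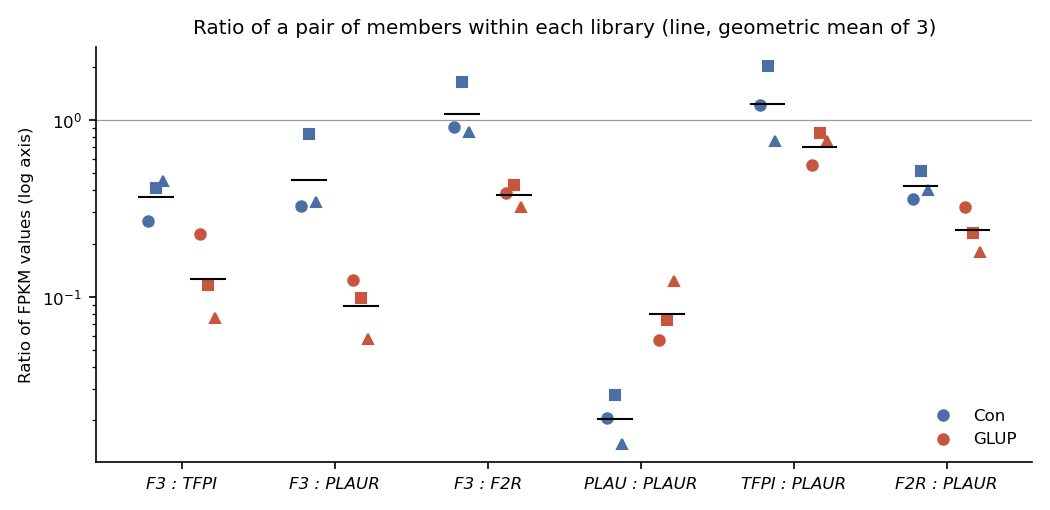
Ratio of the FPKM values of a pair of genes within each library, on a log axis, for 3 Con libraries (blue) and 3 GLUP libraries (red), with circles, squares and triangles for replicates 1, 2 and 3. Short lines are geometric means (n = 3) and the grey line marks a ratio of 1. F3 is lower relative to TFPI, PLAUR and F2R in every GLUP library, PLAU is higher relative to PLAUR, and the groups of TFPI to PLAUR overlap.

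The tested genes whose pattern over the 6 libraries was most like that of F3 were then found by the root mean square difference of the centred log2 values. The 5 closest of 7405 genes were EZH2 (0.0944), EXOSC8 (0.0954), UBE2B (0.104), CDH13 (0.105) and DEPDC5 (0.107), compared with a median of 0.678. EZH2, a histone methyltransferase, was at 6.0, 11.3 and 3.88 FPKM in Con and at 2.29, 1.96 and 1.83 FPKM in GLUP. Like F3, these genes were highest in Con replicate 2 and lower in Con replicate 3 than in the other Con libraries. TFPI (0.378), F2R (0.384) and PLAUR (0.625) were at ranks 867, 915 and 3190 in likeness to F3. Each was nearer to F3 than the median of 0.678, although many other genes were nearer still. These distances use the same Con and GLUP values on which the genes were chosen. They were not computed with the trend in GC content and length removed.

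The wider system of coagulation and fibrinolysis was described with a list of 72 other genes, ordered by role, of which 20 reached 1 FPKM and 17 were listed at 0 in all libraries. None of the 20 had an adjusted p under 0.05 in limma. At an unadjusted p under 0.05, 2 were higher in GLUP (10%, compared with 4.46% of all tested genes) and 0 were lower (compared with 17.2%), and their median log2 difference was -0.06, compared with -0.23 for all tested genes. Of the 20 genes, 11 were lower on average in GLUP (55.0%, beside 65.5% of all tested genes). After scaling by the trimmed mean of log ratios 7 were lower (35.0%, beside 50.6% of all tested genes). The median was then 0.24, compared with -0.01 for all tested genes. With the trend in GC content and length removed 5 were lower (25.0%, beside 49.3%), with a median of 0.25, compared with 0.01. Most partners of tissue factor in plasma were near 0. Among the 16 initiation and coagulation factors only F12 reached the minimum. F7, the factor that tissue factor binds, was at 0.0418 FPKM in Con replicate 1 and listed at 0 elsewhere, and F10 was at 0.137 FPKM or below. PLG, the plasminogen on which urokinase acts, and SERPINB2, an inhibitor of urokinase, were listed at 0 throughout.

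In contrast to F3, F12 and ENO1 had higher values in GLUP. F12, the factor that starts the contact pathway, was at 2.78, 3.06 and 5.24 FPKM in Con and at 8.11, 9.19 and 7.85 FPKM in GLUP. Its groups did not overlap, and the log2 difference was 1.03 (SE 0.29). The adjusted p in limma was 0.194, and 0.0285 without Con replicate 3, the only Con library whose GC correlation was positive. With the trend in GC content and length removed the log2 difference was 0.63 (GC 65.0%, adjusted p 0.265 in limma). ENO1, a glycolytic enzyme that also binds plasminogen at the cell surface, was at 1520, 230 and 2370 FPKM in Con and at 3090, 2520 and 2490 FPKM in GLUP. Its log2 difference was 1.51 (SE 0.69, adjusted p 0.236 in limma), and 0.50 without Con replicate 2, the low library. ENO1 has 54.4% GC, and removing the trend in GC content and length gave 1.40. The second gene with an unadjusted p under 0.05 besides F12 was P4HB, named after its values were seen, which encodes protein disulfide isomerase, an enzyme linked to the activity of tissue factor. It had means of 9.13 ± 5.57 FPKM (Con) and 19.0 ± 5.57 FPKM (GLUP; SD, n = 3 each), with overlapping groups. Its adjusted p in limma was 0.210. P4HB has 57.2% GC, and its log2 difference was 1.13, or 0.94 with the trend in GC content and length removed.

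The genes with the highest level in each role, apart from F12, differed by less. ANXA2, a surface receptor for plasminogen and PLAT, was at 2820 ± 1240 FPKM for Con and 2470 ± 187 FPKM for GLUP (SD, n = 3 each), with a log2 difference of -0.07 that was 0.23 after scaling by the trimmed mean of log ratios and -0.51 without Con replicate 2 (1420 FPKM). The anticoagulant annexin ANXA5 was at 54.4 ± 17.1 and 51.1 ± 0.518 FPKM (SD, n = 3 each), with -0.05, 0.25 and -0.23 in the same settings. VKORC1, of the vitamin K cycle, was at 251 ± 109 and 338 ± 24.5 FPKM, and TIMP1, an inhibitor of matrix metalloproteases, at 64.9 ± 27.5 and 80.3 ± 13 FPKM. The scramblase PLSCR1 was at 36.9 ± 11.9 and 23.4 ± 3.32 FPKM, and ITGB1, the integrin chain that pairs with PLAUR, at 4.95 ± 2.12 and 2.77 ± 0.335 FPKM. Removing the trend in GC content and length moved the log2 difference from -0.59 to 0.05 for PLSCR1 (36.9% GC). For ITGB1 (39.5% GC) it moved from -0.60 to -0.07. For VKORC1 (58.5% GC) and TIMP1 (57.5% GC) it moved from 0.54 to 0.32 and from 0.40 to 0.21. None of these 6 had an adjusted p under 0.05 in limma (0.270 to 0.933). GNA11, a G protein used by F2R, was below the minimum at 1.02 ± 0.336 and 0.669 ± 0.136 FPKM, and KLK6 was listed above 0 in 1 library only.

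**Figure D5:**
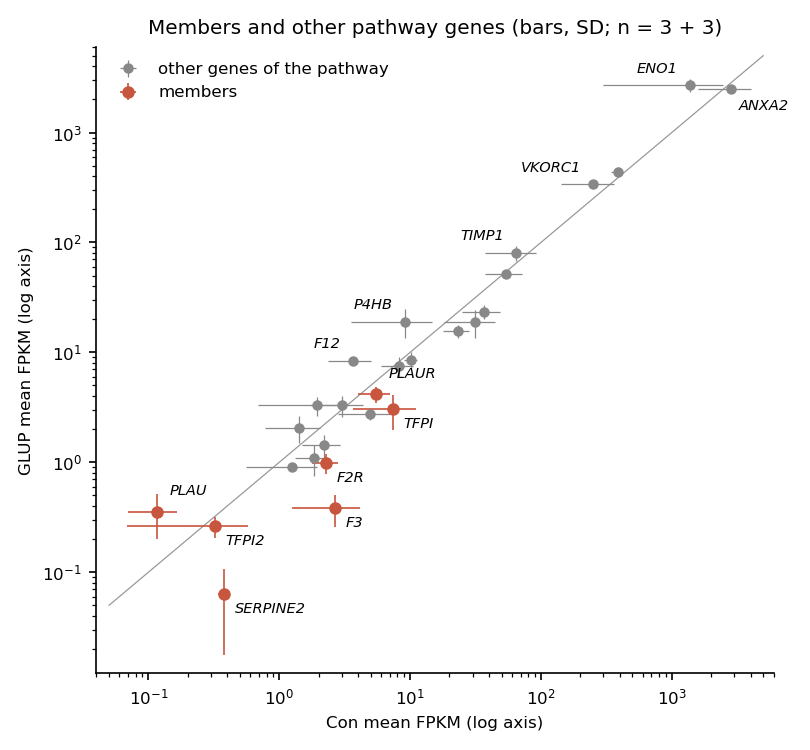
Mean FPKM in GLUP against Con, both on log axes, for the 20 tested genes of the wider list (grey) and 7 of the 9 genes (red), with SD bars (n = 3 in each group) and a line of equality. F3 and SERPINE2 lie farthest below the line, PLAU, F12, P4HB and ENO1 lie above it, and ENO1 has a wide Con bar.

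Finally, the values of general epithelial and mesenchymal markers were read, with those of cell types that make many of these proteins. EPCAM and CDH1 were at 0.124 FPKM or below and lower on average in GLUP, where CDH1 was listed at 0, keratins KRT8, KRT18 and KRT19 between 0.764 and 2.51 FPKM, and VIM between 222 and 387 FPKM. The sum of the 5 epithelial markers was 2.97 to 3.70 FPKM in Con and 5.18 to 6.06 FPKM in GLUP, higher through the keratins alone. That of the 3 mesenchymal markers was 337 to 391 FPKM and 223 to 337 FPKM. The epithelial sums of the groups lay apart. The mesenchymal sums met at 337 FPKM, with VIM at 336 FPKM in both Con replicate 1 and GLUP replicate 1. The part of these markers in the differences of F3, F2R, SERPINE2 and PLAU was not tested. Of the 4 endothelial markers 3 were found and summed to 0.0239 FPKM or below, the 4 platelet markers summed to 0.0769 FPKM or below with PF4, PPBP and GP9 at 0, and the 4 leukocyte markers summed to 0.0478 FPKM or below. The 4 hepatocyte markers summed to 0.192 to 0.813 FPKM in Con and 0.355 to 0.607 FPKM in GLUP. This came mostly from APOA1 (0.192 to 0.746 FPKM), while ALB and FGB were at 0. The sum of the 4 fibroblast markers was 25.5 to 45.4 FPKM in Con and 19.5 to 27.6 FPKM in GLUP, mostly from DCN (16.0 to 41.3 FPKM). DCN alone of them was lower on average in GLUP. PDGFRB was higher in every GLUP library (0.184 to 0.198 FPKM) than in any Con library (0.110 to 0.140 FPKM). COL1A1 and COL1A2 had higher means in GLUP, with overlapping groups.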

How the data were processed

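RNA of HGC-27 cells was read by Illumina sequencing, and 3 Con and 3 GLUP samples were grouped by their titles. The values deposited by the authors were FPKM per gene, scaled to gene length and to the total of each library. The processing notes of the submitters name HISAT2, Cufflinks, RSEM and GRCh38.p10, without roles, while the identifiers carry the suffix of a GENCODE annotation lifted to GRCh37. Coordinates, length and GC content (canonical transcript, or the longest where none is marked) came from GENCODE 44 lifted to GRCh37 and were found for 99.8% of the tested genes. Promoters came from RefSeq (GRCh38.p14) and were not converted. Whether counting used strand is not given in the sources used here, so genes with an antisense partner are uncertain.

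The 49 pseudoautosomal copies on chromosome Y were summed with their counterparts, leaving 62443 genes, of which 30999 were at 0 throughout. Values were transformed to log2(FPKM + 1), and the 7406 genes that averaged 1 FPKM or more across samples were fitted with lmFit and eBayes (with trend) of limma 3.58.1 under R 4.3.3. Tests were two-sided, with Benjamini-Hochberg adjustment over all of them and no block. For genes below this minimum, the fit was repeated without the filter. The p-values measure only the spread between these samples, which may be partly technical. With 3 against 3 samples, an exact permutation test cannot go below 0.1. The loess trend in GC content and length (span 0.5) was removed from each library without use of the groups. FPKM carries no read numbers: the value of 1 read was estimated from the step at which low values clustered, where 3.9% to 5.98% of them lay, compared with 0.718% to 0.785% at the median step, so read numbers are approximate, and count tests were not used.

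The 9 genes, the wider list, the markers and the settings were chosen with earlier results of these data known. Named genes were the 9, the genes of the wider list with no overlap and more than a 2-fold difference, the one with the highest mean in each role, and the 5 most like F3. Ratios without a pseudocount and with the GC trend removed, the shares with a library left out, and the scalings of genes below the minimum, were added after seeing the data. Many genes of the wider list are counted but not reported by name. The fit was tested on simulated data. Tables and figures were made with Python 3.11.15, pandas 2.3.3, numpy 2.4.6 and matplotlib 3.10.9.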

Additional observations from a re-analysis of the deposited data

How the results depend on the processing

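In limma, 0 genes had an adjusted p under 0.05, and 0 with a difference of more than 2-fold as well. Each count became 1 when the minimum was 5 FPKM, under eBayes without trend, under the replicate block, and under the replicate block after removal of the GC and length trend. It became 2 after removal of that trend alone. Leaving out each library gave 0 to 1367 and 0 to 1041 genes, with the high values without Con replicate 3 and 3 in both counts without Con replicate 2. Elsewhere both were 0, with 785 to 2541 genes at an unadjusted p under 0.05. In the wider list, leaving out a library gave 0 to 1 genes. The genes whose groups did not overlap numbered 4, and 4 to 7 when a library was left out, with 7 without Con replicate 3, where TFPI, TFPI2 and PLAUR were added, and 6 without GLUP replicate 2. With a library left out the groups of all tested genes part more easily: the share was 56.8% without Con replicate 3 and 35.5% to 43.3% without each other library (39.1%, and 25.6% to 28.6%, from 0.1 to 1 FPKM). Deviations of same-numbered samples from their group means had correlations of 0.13, -0.01 and -0.17. With 3 samples per group these cannot show whether the numbers mark a shared culture or day. The replicate block changed no call of the 20 genes of the wider list. Over all settings the log2 difference ranged from -2.70 to -0.89 for F3, from -1.41 to -0.32 for TFPI, from -1.20 to -0.31 for F2R, from -0.50 to -0.05 for PLAUR, from -2.66 to -0.33 for SERPINE2, from 0.19 to 1.5 for PLAU and from -0.22 to 0.34 for TFPI2. For genes below the minimum, these ranges leave out centring, GC removal and the minimums of 0.1 and 5 FPKM. The causes were not tested. The ratios between genes were smaller with a pseudocount of 1, as given beside them. Below 1 FPKM few reads limit every ratio.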
